A study of Mus musculus with 2 samples.

Results

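The small proline-rich protein genes analysed here are Sprr1a, Sprr1b, Sprr2a3, Sprr2b, Sprr2d, Sprr2f and Sprr3, which were found by symbol among the listed genes and make up 7 of 31053. They were followed through the epithelial layers of the mouse cervix and within single cells, in 2 single-cell RNA libraries of C57BL6/129 females that had been ovariectomised at 7 to 8 weeks of age. Each library pooled the cervices of 9 mice, dissected below the transition zone and freed of vagina, and all mice had 2 weeks to recover before a 15-day experiment. The control mice were left untreated and received neither oil nor a pellet. The mice of the progesterone group were injected under the skin with estradiol (E2), 100 µg a day in corn oil for 2 days, and were then given a 25 mg pellet of progesterone designed to last 21 days, which delivers roughly 1 mg a day. Priming with E2, the injections and the pellet therefore cannot be told apart from progesterone. Each group is 1 library, so the values describe these libraries without a test between the groups, and every interval below is a 95% interval that covers counting error only.

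Small proline-rich proteins are precursors of the cornified envelope, the protein shell that replaces the membrane of the outermost cells of a stratified squamous epithelium. Transglutaminases cross-link them to loricrin, involucrin and other envelope proteins, and they act there as bridges between larger partners. The Sprr1 genes are known for their induction by injury and stress, the Sprr2 genes form the largest subfamily and include members that estrogen induces in the rodent uterus, and Sprr3 is known from internal squamous epithelia such as that of the oesophagus.

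All 15 Sprr genes of the files lie side by side on chromosome 3, from 92215799 to 92500493 in build GRCm38, a stretch of 284.695 kb. Sprr2a3 (ENSMUSG00000074445, 92285417 to 92291405), Sprr2b (ENSMUSG00000050092, 92316620 to 92318085), Sprr2d (ENSMUSG00000042212, 92339140 to 92340873) and Sprr2f (ENSMUSG00000050635, 92365187 to 92366442) are on the plus strand. Sprr1b (ENSMUSG00000048455, 92436809 to 92438789), Sprr3 (ENSMUSG00000045539, 92456502 to 92458720) and Sprr1a (ENSMUSG00000050359, 92483952 to 92485895) are on the minus strand. All 7 are annotated as protein coding, and their transcripts have at most 2 exons.

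The promoters of the members that carry most of the counts are shown first, because those of Sprr2f, Sprr2d and Sprr2b share most of their letters. Each line gives the 210 bases before the RefSeq start site in GRCm38.p6, 5′ to 3′ on the strand of the gene. Capitals mark matches to the AP-1 motif TGANTCA, the site of Fos and Jun proteins, and to the TATA box TATAAA. The windows are Sprr2f chr3:92364977-92365186 (plus), Sprr2d chr3:92338930-92339139 (plus), Sprr2b chr3:92316495-92316704 (plus) and Sprr1a chr3:92485882-92486091 (minus).
Sprr2f: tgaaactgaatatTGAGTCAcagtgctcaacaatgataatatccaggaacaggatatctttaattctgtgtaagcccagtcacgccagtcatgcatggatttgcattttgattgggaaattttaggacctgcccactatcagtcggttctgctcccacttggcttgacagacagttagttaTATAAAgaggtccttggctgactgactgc
Sprr2d: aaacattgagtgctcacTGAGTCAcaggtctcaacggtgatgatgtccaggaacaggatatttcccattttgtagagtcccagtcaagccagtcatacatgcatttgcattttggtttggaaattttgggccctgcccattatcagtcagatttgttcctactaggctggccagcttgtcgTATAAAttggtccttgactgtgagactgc
Sprr2b: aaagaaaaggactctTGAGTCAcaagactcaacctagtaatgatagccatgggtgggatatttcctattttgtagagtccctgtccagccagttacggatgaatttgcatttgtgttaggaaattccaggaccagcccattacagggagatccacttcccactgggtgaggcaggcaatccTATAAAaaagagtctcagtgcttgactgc
Sprr1a: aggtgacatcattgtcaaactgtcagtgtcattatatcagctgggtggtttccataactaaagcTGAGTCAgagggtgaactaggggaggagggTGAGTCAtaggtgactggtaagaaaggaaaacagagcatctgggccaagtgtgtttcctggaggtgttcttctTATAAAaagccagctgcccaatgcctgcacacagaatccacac

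RefSeq promoters of 300 bases, 250 before and 50 after the start site, were found for all 7 genes and were searched on both strands. TGANTCA was present in 5 of 7, and in 7.81% of all 32851 promoters of that table. Its first base stood at −197 in Sprr2f, −193 in Sprr2d and −195 in Sprr2b, at −111 in Sprr1b, and at −146 and −116 in Sprr1a, counted from the start site. The windows of Sprr2a3 and Sprr3 held no match. That of Sprr2a3 is out of step with the others: the 210 bases before its RefSeq start end at 92285303, upstream of its GENCODE start at 92285417, so its motif search and its alignments do not cover a stretch like that of the other Sprr2 genes. TATAAA was present in 6 of 7, against 13.6% of all promoters, and began at −29 in Sprr2f, Sprr2d and Sprr2b alike. The repeat GGTCA, 1 arm of an estrogen response element, was found in 2 of 7 (Sprr2f at −219 and Sprr3 at −19), against 40.5% of all. The full element GGTCANNNTGACC was in none of the 7 and in 0.0700% of all promoters, and the element of progesterone and glucocorticoid receptors, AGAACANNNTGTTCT, in none and in 0.00913%. The ETS core CCGGAA was in none of the 7 (14.9% of all), the C/EBP motif TTGCNNAA in none (10.8%) and the KLF core CACCC in 4 (57.5%), where 1 match of Sprr1a overlapped its AP-1 match at −116. Aligned over their 300 bases, the promoters of Sprr2d and Sprr2f were 72.2% identical, those of Sprr2b and Sprr2d 64.6% and those of Sprr2b and Sprr2f 63.1%, and the other pairs of members lay between 45.3% and 52.6%, where the values of Sprr2a3 carry the limit just given. A match is a description of the letters and does not show that a factor binds there.

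**Figure D1:**
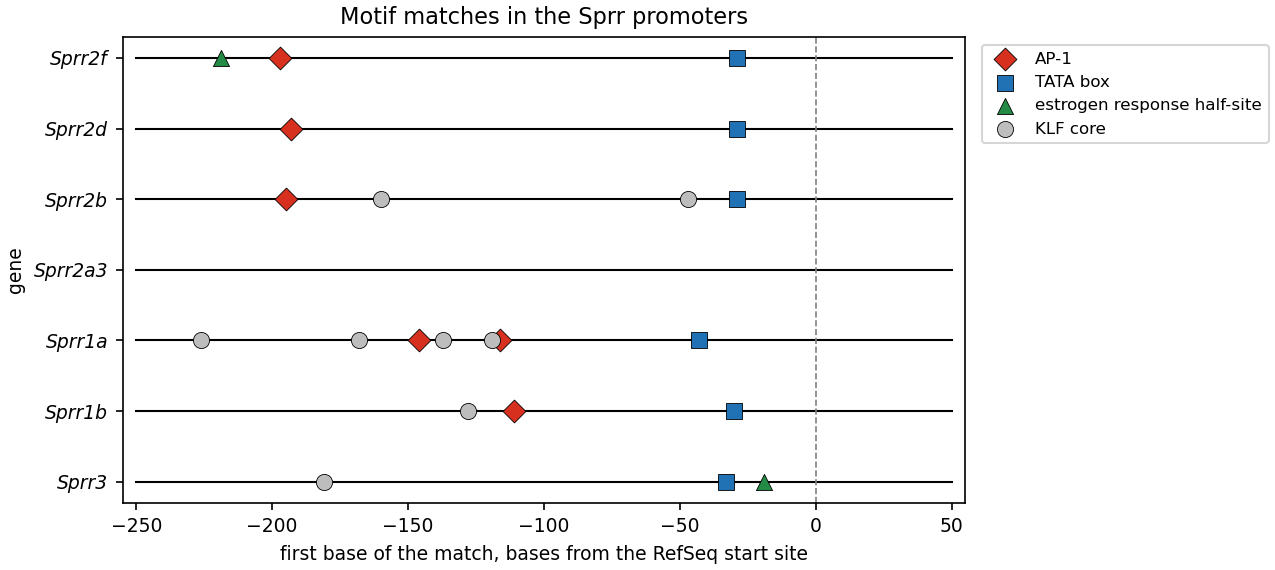
Positions of motif matches in the promoters of the 7 Sprr genes, with the distance from the RefSeq start site in bases on the horizontal axis and 1 gene per row. The AP-1 matches of Sprr2b, Sprr2d and Sprr2f stand between −197 and −193 and their TATA boxes at −29. The row of Sprr2a3 covers a window upstream of its GENCODE start and cannot be set against the other rows.

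Counts are of unique molecular identifiers (UMIs), 1 per RNA molecule caught. There were 21658684 over 5368 deposited control barcodes and 44811069 over 10853 progesterone barcodes. Filters and doublet removal left 4579 control and 8541 progesterone cells, with medians of 3733 and 4151 UMIs. The libraries shared 19 barcodes. Cells fell into 23 clusters that were built without the Sprr genes, and clusters were named from fixed markers. Basal squamous-like cells, which line the bottom of the epithelium (Krt5, Krt14, Krt15), were 1210 control and 3243 progesterone cells. Suprabasal squamous-like cells, one step further in differentiation (Krt13, Krt10, Sbsn, Dsc2), were 1394 and 1009. They came mostly from cluster 1 in the control library (971 control and 55 progesterone cells) and from cluster 0 in the progesterone library (130 and 950), so the layer was not made of the same clusters in both. The basal class too drew on different clusters, with 699, 348 and 163 control and 220, 1240 and 1783 progesterone cells in clusters 2, 5 and 7. Krt14 did not separate the layers, at 18739 CPM in basal and 22887 CPM in suprabasal control cells, whereas Col17a1, a component of the attachment to the basement membrane, stood at 326 and 52.2. Krt5 was little different in the control (5383 and 4533 CPM) and higher in suprabasal cells of the progesterone library (2958 and 4965). In that library Krt14 stood at 6475 and 6806 and Col17a1 at 333 and 173. A cycling cluster, number 10, held 296 and 353 cells. Cluster 6, which had Crct1 and Cnfn, genes of late cornified proteins, among its 10 top genes by fold behind Ppbp, Psca, Clca3b and Prss27, held 276 control cells (6.03%) but 37 progesterone cells (0.433%). It expressed few basal keratins (Krt5 at 877 CPM in the control) together with Krt13 at 2227, Krt19 at 2285 and Krt7 at 1781, and its best class score was luminal. It was kept out of that class because of the cornified genes among its top genes and is called by its number. Luminal-like cells, named from markers of the columnar lining such as Krt8 and Krt18, were 222 and 1737. The control class also read squamous keratins, with Krt13 at 5046, Krt14 at 3400 and Krt5 at 2857 CPM beside Krt8 at 3077. In the progesterone class these stood at 1294, 187, 493 and 891. Lce3c, a cornified gene, was among the top genes of cluster 12, which held 214 of the control cells, so the control class is not a plain columnar one.

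Levels are UMIs summed over the cells of a class and scaled to 1000000 UMIs of that class (CPM). The reads lie near the 3′ end of the RNA, so values were not divided by gene length. In the control library the 7 genes together read 848 CPM [821 to 875] in basal, 6761 [6706 to 6816] in suprabasal and 39436 CPM in cluster 6 cells. Suprabasal cells were thus 7.98-fold [7.72 to 8.24] above basal cells, and cluster 6 was 5.83-fold [5.77 to 5.90] above suprabasal cells. With progesterone the same classes read 85.7 CPM [81.1 to 90.4], 1021 [996 to 1046] and 13684 CPM. The order of the 3 classes was the same in both libraries, with intervals far apart, at a lower level throughout in the progesterone library. Cluster 6 held 49.4% of all member UMIs of the control and 29.3% of the progesterone library.

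**Figure D2:**
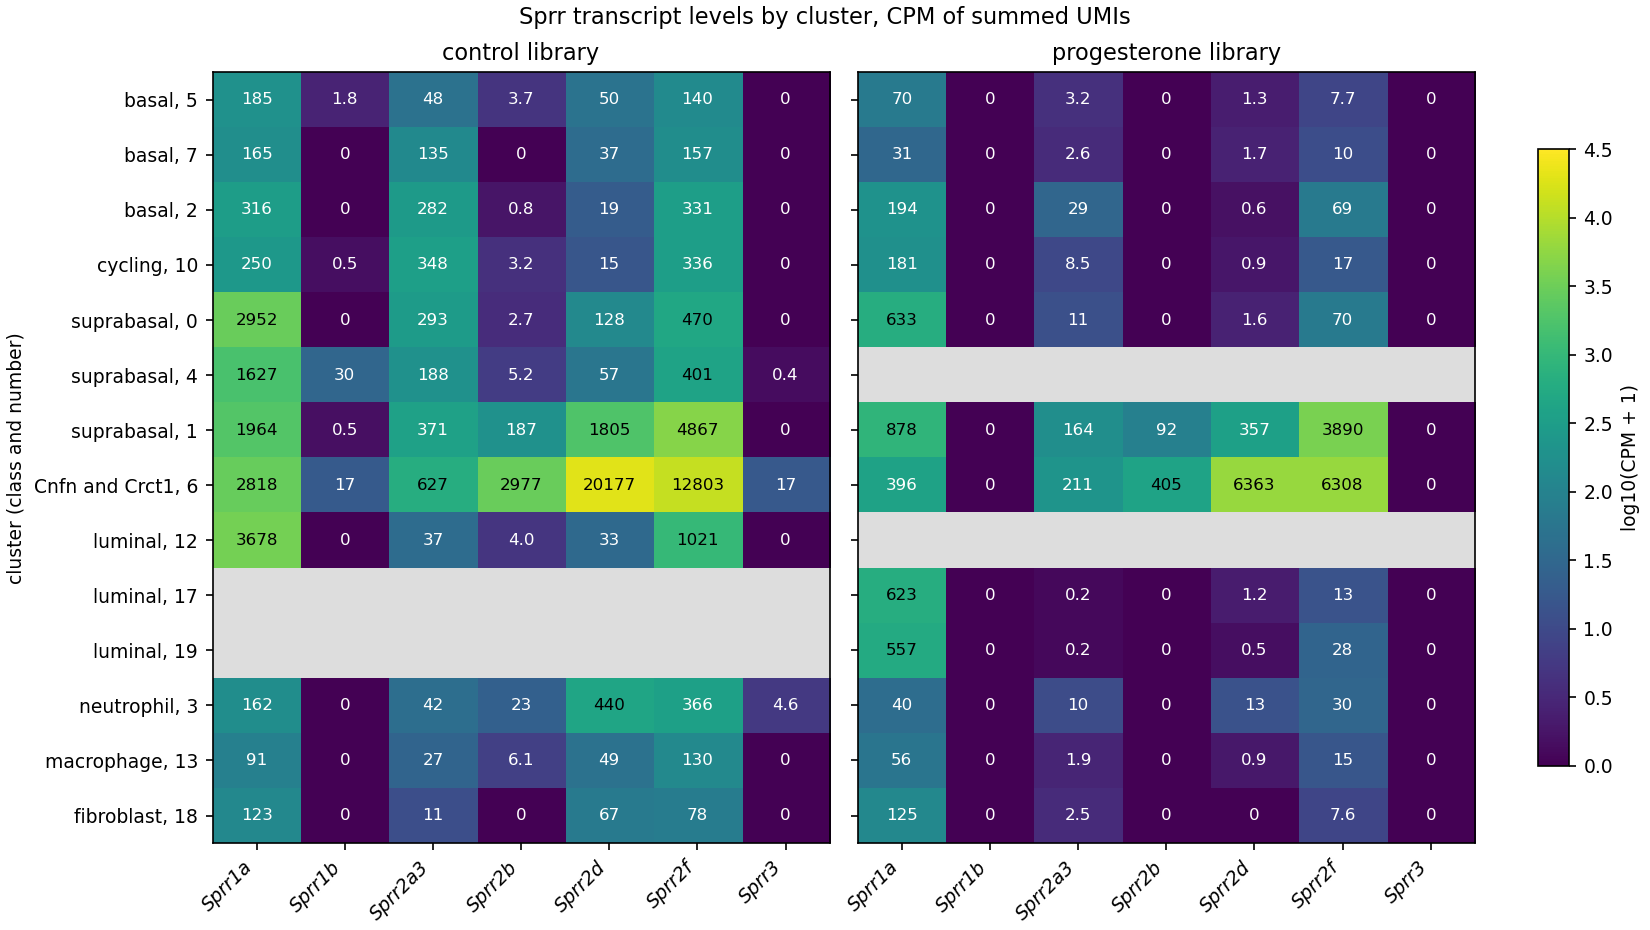
Heat map of the level of each Sprr gene (columns; CPM printed in the cells, colour on a log10(CPM + 1) scale) in each cluster (rows, with class and cluster number), control library left and progesterone library right, with grey rows where a library had fewer than 30 cells. The brightest cells are Sprr2d and Sprr2f in cluster 6, and Sprr1a is the only gene above 500 CPM in luminal clusters 17 and 19 of the progesterone library.

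Sprr2f and Sprr2d, 2 of the Sprr2 envelope precursors, were the most abundant members and differed in their steps between classes. In control cells Sprr2f stood at 293 CPM in basal, 3210 in suprabasal and 12803 in cluster 6 cells. The suprabasal level of Sprr2f was 10.9-fold the basal one, and cluster 6 was a further 3.99-fold higher. Sprr2d stood at 24.3 CPM in basal, 1160 in suprabasal and 20177 in cluster 6 cells of the same library. Its steps were steeper, with 47.7-fold between basal and suprabasal cells and 17.4-fold from there to cluster 6, where Sprr2d overtook Sprr2f. Neither basal level was above that of control neutrophil-like cells given below, so the steps from basal cells are steps over background. Progesterone cells read Sprr2d at 1.41, 24.3 and 6363 CPM and Sprr2f at 15.9, 317 and 6308 CPM in the same order of classes. There the step from suprabasal cells to cluster 6 was 262-fold for Sprr2d and 19.9-fold for Sprr2f. The suprabasal Sprr2d level of that library was not above the neutrophil-like interval given below, so the 262-fold step is one over background.

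Sprr2b, a further Sprr2 gene, was read mostly in cluster 6, which held 81.6% of its control and 82.7% of its progesterone UMIs, beside 76.3% and 92.2% for Sprr2d. Its control level was 1.10 CPM in basal, 119 in suprabasal and 2977 in cluster 6 cells. The suprabasal level was 109-fold [46.5 to 336] the basal one, on 5 basal UMIs. With progesterone Sprr2b had 0 basal UMIs, 5.83 CPM in suprabasal cells and 405 CPM in cluster 6. Of the 38 suprabasal Sprr2b UMIs of that library, 31 came from 1 cell of cluster 1.

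Sprr2a3 was the exception over the layers of the control library. It read 241 CPM in basal, 312 in suprabasal, 348 in cycling and 627 CPM in cluster 6 cells, so that suprabasal cells were only 1.29-fold [1.20 to 1.39] above basal cells. The basal value came mainly from cluster 2, where Sprr2a3 stood at 282 CPM, against 135 in cluster 7 and 48.05 in cluster 5. The progesterone library read 5.75, 21.0, 8.53 and 211 CPM in the same order, and the step between the layers was 3.66-fold. Of these levels only that of cluster 6 stood above the neutrophil-like interval given below, so nothing is read from that step. Part of the Sprr2a3 value is uncertain: of the 90-base windows in the last 400 bases of its transcripts, 50.2% are also found in Sprr2a2, a near copy, and how reads that match both were counted is not given in the sources used here. Sprr2a1 and Sprr2a2, which share all such windows with each other, were read with 12 and 9 control UMIs. No window of the other 6 members was shared with another Sprr gene.

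Sprr1a, the stress-responsive Sprr1 gene, was spread most widely. In control cells it stood at 287 CPM in basal, 1951 in suprabasal and 2818 in cluster 6 cells, and at 3618 CPM in luminal-like cells, the highest of these classes. Suprabasal cells held 60.4% of its control UMIs and luminal-like cells 10.0%. In the progesterone library it stood at 62.6 CPM in basal, 653 in suprabasal and 569 CPM in luminal-like cells, and at 396 CPM in cluster 6. Cluster 6 was thus 1.44-fold the suprabasal level in the control and 0.607-fold in the progesterone library, and of the 5 members with UMIs in both classes of both libraries only Sprr1a, in the progesterone library, had less in cluster 6 than in suprabasal cells. A single control cell of cluster 6 gave 32.3% of the Sprr1a UMIs there, and without it the level was 1924 CPM, beside the 1951 CPM of suprabasal cells. The control luminal-like cells were mostly cluster 12 (3678 CPM of Sprr1a) and the progesterone ones clusters 17 and 19 (623 and 557 CPM), so these levels compare different clusters; the 17 progesterone cells of cluster 12 read 509 CPM.

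Sprr1b, a close relative of Sprr1a, and Sprr3 were nearly absent. Sprr1b had 124 UMIs in 39 control cells, of which 75 lay in 27 cells of the suprabasal cluster 4, and 0 in the progesterone library. Cluster 4 itself held 293 control and 4 progesterone cells. Sprr3 had 35 UMIs in 8 control cells and 1 in the progesterone library, and 31 of the 35 lay in 4 cells of cluster 6. Among the other 8 Sprr genes of the files, Sprr2e had the most UMIs over all deposited barcodes, 1337 control and 61 progesterone, followed by Sprr2h with 184 and 12 and Sprr2i with 180 and 0. Sprr2j-ps, Sprr2k, Sprr2a1 and Sprr2a2 had at most 22 control and 2 progesterone UMIs each, and Sprr4 had 0 in both. In cluster 6 of the control library Sprr2e stood at 585 CPM, Sprr2i at 96.0 and Sprr2h at 69.8, and Sprr2e at 122 CPM in the progesterone library.

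The mixture of the 7 genes therefore changed from class to class. In control basal cells Sprr2f gave 34.6% of member UMIs, Sprr1a 33.9% and Sprr2a3 28.5%, with 2.87% for Sprr2d. In suprabasal cells Sprr2f led with 47.5%, before Sprr1a with 28.9% and Sprr2d with 17.2%. In cluster 6 Sprr2d gave 51.2%, Sprr2f 32.5%, Sprr2b 7.55% and Sprr1a 7.15%. Luminal-like cells stood apart with 77.2% Sprr1a and 21.2% Sprr2f. With progesterone Sprr1a took a larger share outside cluster 6, with 73.1% in basal, 63.9% in suprabasal, 87.2% in cycling and 95.7% in luminal-like cells, whereas cluster 6 was divided between Sprr2d (46.5%) and Sprr2f (46.1%). As given below, control basal Sprr2f and Sprr2d and the progesterone basal levels were not distinguishable from background. The same held for progesterone cycling Sprr2a3 and Sprr2f, so the basal and cycling shares are in part shares of background.

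**Figure D3:**
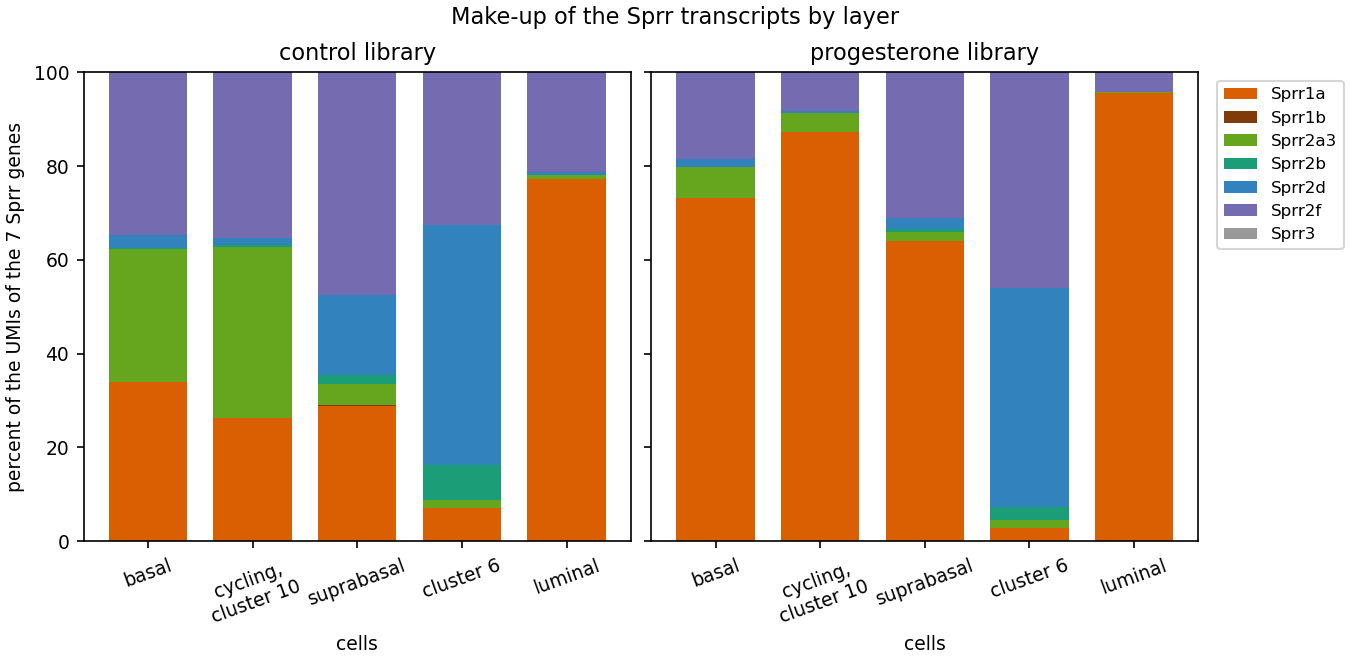
Share of each Sprr gene in the member UMIs (percent) of each cell class, control and progesterone library side by side. Sprr1a fills most of the progesterone bars outside cluster 6, at 63.9% in suprabasal and 95.7% in luminal-like cells, and Sprr2d with Sprr2f most of cluster 6 in both libraries. The basal and cycling bars rest in part on levels not distinguishable from background.

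Cells that should not express envelope genes also held some of these UMIs, which sets a floor for the low values. Macrophage-like cells (190 control and 412 progesterone cells) read Sprr1a at 91.0 and 56.1 CPM, Sprr2f at 130 and 15.0, Sprr2d at 48.5 and 0.93 and Sprr2a3 at 27.3 and 1.87 in the control and progesterone library. Control basal cells stood above this level for Sprr1a, Sprr2f and Sprr2a3 but below it for Sprr2d, so a basal Sprr2d level was not distinguishable from background. In the progesterone library basal Sprr1a (62.6 CPM [58.8 to 66.7]) and Sprr2f (15.9) lay at the macrophage-like level (56.1 [42.8 to 72.2] and 15.0 [8.54 to 24.3]), and there too basal expression was not distinguishable from background. The same held for basal Sprr2a3 of that library (5.75 CPM [4.63 to 7.07]). It overlapped the macrophage-like interval (0.226 to 6.75) and lay within the neutrophil-like one (2.73 to 25.6). Control neutrophil-like cells, with a median of 581 UMIs, read Sprr2d at 440 and Sprr2f at 366 CPM [289 to 456]. The control basal Sprr2f level of 293 CPM [278 to 310] was not above this, so by that class it was not distinguishable from background. Control basal Sprr1a and Sprr2a3 (287 and 241 CPM) stood above the neutrophil-like 162 and 41.6. In the progesterone library suprabasal Sprr2d stood at 24.3 CPM [20.6 to 28.4], Sprr2a3 at 21.0 [17.7 to 24.9] and Sprr2b at 5.83 [4.13 to 8.01]. These lay above the macrophage-like intervals but within the neutrophil-like ones (4.06 to 29.2, 2.73 to 25.6 and 0 to 9.23). By the latter class they were not distinguishable from background. In the progesterone fibroblast-like cells 43 of 49 Sprr1a UMIs lay in 1 cell. The 39 control erythrocyte-like cells read 6945 CPM of the summed members and the 142 progesterone ones 41.4 CPM, so the background was not even over the classes.

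The progesterone library read less of the 7 genes than the control library in every epithelial class, and also in cells that should not express them. Over all analysed cells their sum stood at 7268 CPM in the control and 550 CPM in the progesterone library, 13.2-fold [13.02 to 13.41] lower. In basal cells it was 9.90-fold [9.30 to 10.5] lower, in suprabasal cells 6.62-fold [6.46 to 6.79], in the cycling cluster 4.604-fold, in luminal-like cells 7.88-fold and in cluster 6 2.88-fold [2.81 to 2.96]. Beside these, the background differed too: the sum stood at 1036 and 92.6 CPM in neutrophil-like cells, 11.2-fold [7.88 to 16.3] lower, and at 303 and 73.8 CPM in macrophage-like cells, 4.11-fold [3.03 to 5.59] lower. The part of free RNA in the epithelial ratios was not tested. Over all cells the sum also depends on the share of cluster 6 cells, which was 6.03% and 0.433%.

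Among the 5 members with UMIs in both libraries, Sprr2d showed the largest ratio in suprabasal cells and Sprr1a the smallest. Sprr2d was 47.8-fold [40.9 to 56.3] lower in the progesterone library, Sprr2b 20.5-fold, Sprr2a3 14.8-fold, Sprr2f 10.1-fold [9.68 to 10.6] and Sprr1a 2.99-fold [2.89 to 3.09]. By the neutrophil-like class, the progesterone levels of Sprr2d, Sprr2b and Sprr2a3 were not distinguishable from background. Their folds therefore compare a control level with background. Sprr1b, with 78 control and 0 progesterone UMIs, was at least 19.5-fold lower against a floor of 3 counts per class. The filter of at least 20 UMIs over both libraries, kept 6 members and left out Sprr3. Sprr1b passed it through its control counts alone and so had to be lower. The other 5 were past 2-fold lower, but only Sprr1a and Sprr2f by levels above background in both libraries. Of 11122 genes, 5.43% were past 2-fold lower and 10.5% past 2-fold higher.

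In basal cells Sprr2a3 was 41.9-fold [33.8 to 52.6] lower, Sprr2f 18.5-fold and Sprr1a 4.59-fold. The progesterone values of Sprr1a, Sprr2f and Sprr2a3 there were not distinguishable from background, so their folds compare a control level with background. For Sprr2f the control basal level (293 CPM) was itself not above that of control neutrophil-like cells (366). Sprr2d lay at or near background in both libraries (24.3 and 1.41 CPM, beside 48.5 and 0.93 in macrophage-like cells) and is given no basal fold. The filter kept these 4 members, and because of the background nothing is read from their count past 2-fold lower, 4, beside 6.15% of 11762 genes past 2-fold lower and 7.29% higher. In luminal-like cells Sprr1a was 6.36-fold and Sprr2f 40.1-fold lower, the latter against a progesterone level not distinguishable from background. Sprr2a3 and Sprr2d passed the filter there through their control UMIs (30 and 25, against 2 and 7), and 7.4% of 11047 genes were past 2-fold lower. In cycling cells Sprr2a3 and Sprr2f were 40.8-fold and 19.7-fold lower, but Sprr1a only 1.38-fold. The cycling progesterone levels of Sprr2a3 (8.53 CPM [5.14 to 13.3]) and Sprr2f (17.1 [12.1 to 23.4]) overlapped the neutrophil-like intervals (2.73 to 25.6 and 15.5 to 52.4). They were therefore not distinguishable from background, and control cycling Sprr2f (336 CPM) was not above the neutrophil-like 366. In cluster 6 Sprr2b was 7.35-fold, Sprr1a 7.11-fold, Sprr2d 3.17-fold, Sprr2a3 2.97-fold and Sprr2f 2.03-fold [1.95 to 2.11] lower, over 276 control and 37 progesterone cells, and Sprr1a 4.86-fold without the single control cell named above. Few progesterone cells carried these values: the cell richest in each gene held 48.4% of the Sprr2b, 46.3% of the Sprr2a3 and 38.2% of the Sprr1a UMIs. Without that cell the levels were 218 CPM of Sprr2b in place of 405, 119 of Sprr2a3 in place of 211 and 253 of Sprr1a in place of 396.

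**Figure D4:**
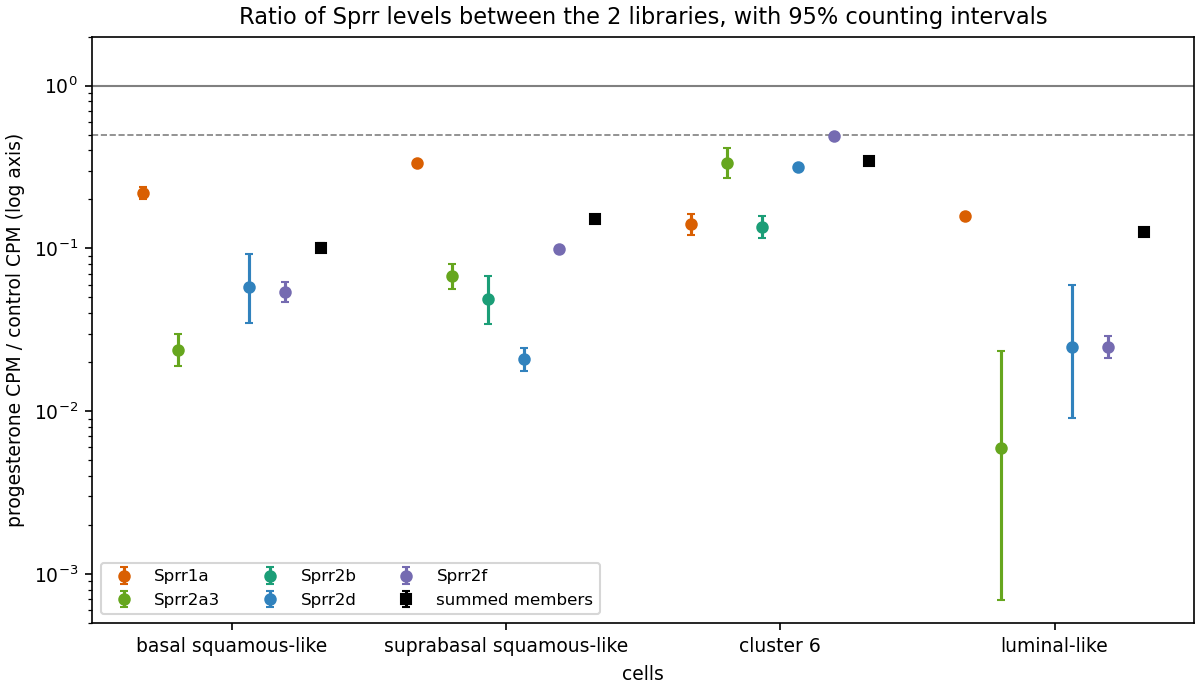
Progesterone over control CPM of 5 Sprr genes and of the summed members (log axis) in 4 groups of cells, with exact 95% conditional binomial intervals for counting error, a solid line at a ratio of 1 and a dashed line at 2-fold lower. All points shown lie under the dashed line, that of Sprr2f in cluster 6, 2.03-fold lower, nearest to it, and the basal Sprr2d point rests on background levels in both libraries. The basal points of Sprr1a, Sprr2a3 and Sprr2f and the luminal-like points of Sprr2a3, Sprr2d and Sprr2f rest on progesterone levels not distinguishable from background. By the neutrophil-like class, so do the suprabasal points of Sprr2a3, Sprr2b and Sprr2d.

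Because the suprabasal layer was made of different clusters in the libraries, the ratios were also taken inside clusters. In cluster 0 the sum was 5.37-fold lower in the progesterone library, with Sprr1a at 2952 and 633 CPM, Sprr2f at 470 and 69.9, Sprr2a3 at 293 and 11.4 and Sprr2d at 128 and 1.65. These 4 were the members with enough UMIs. Sprr1a, Sprr2f and Sprr2a3 were past 2-fold lower, beside 5.84% of 10052 genes. Sprr2d passed the filter through its control UMIs (94, against 10) and is not counted. Its control level was below that of control neutrophil-like cells (440 CPM), so nothing is read from it. The progesterone Sprr2a3 level lay within the neutrophil-like interval (2.73 to 25.6). In 1 of the 130 control cells of cluster 0 lay 506 of 2167 Sprr1a UMIs, and without that cell the control level was 2360 CPM. In cluster 1 the sum was 1.71-fold [1.64 to 1.78] lower, and the members spread out. Sprr2d stood at 1805 and 357 CPM, 5.06-fold lower, Sprr2a3 at 371 and 164, Sprr1a at 1964 and 878, 2.24-fold lower, and Sprr2f at 4867 and 3890 CPM, only 1.25-fold [1.19 to 1.32] lower. Only 55 progesterone cells were in cluster 1. Of their 1613 Sprr2f UMIs, 363 lay in 1 cell, and without that cell the level was 3137 CPM, a larger difference from the control. Without the richest cell of each, Sprr2d stood at 280, Sprr2a3 at 120 and Sprr1a at 801 CPM. In the basal cluster 2, with 699 control and 220 progesterone cells, Sprr2a3 was 9.70-fold, Sprr2f 4.83-fold and Sprr1a 1.63-fold lower. Of the 50 progesterone Sprr2a3 UMIs there, 25 lay in 1 cell, and without it the level was 14.6 CPM in place of 29.1. The control Sprr2f level of cluster 2, 331 CPM, was not above that of control neutrophil-like cells (366). The clusters of each layer thus agree in direction and differ in size, and clustering more coarsely (Leiden resolution 0.5) brought the suprabasal difference of the sum down to −0.482 on the log2 scale, from −2.73.

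The step between the layers was counted in the same way. In the control library Sprr1a, Sprr2d and Sprr2f were past 2-fold higher in suprabasal than in basal cells, beside 6.27% of 10988 genes, and Sprr2a3 was not. Sprr1b and Sprr2b, with 1 and 5 basal UMIs, entered through the suprabasal cells and had to be higher. With progesterone Sprr1a, Sprr2a3, Sprr2d and Sprr2f were past 2-fold higher, beside 6.97% of 11915 genes, and Sprr2b entered through 38 suprabasal UMIs alone. The basal levels of Sprr1a and Sprr2f there were not distinguishable from background, so their steps are steps over background. For Sprr2a3 and Sprr2d neither the basal nor, by the neutrophil-like class, the suprabasal level was. Nothing is read from the steps of Sprr2a3 and Sprr2d. The squamous-like cells were also split into 3 parts of similar size by the ratio of suprabasal to basal markers, in place of clusters. From the lowest to the highest ratio these held 324, 1034 and 1246 control and 2005, 1208 and 1039 progesterone cells. The summed levels were 839, 1682 and 7037 CPM in the control and 63.6, 176 and 953 CPM in the progesterone library. The progesterone library was 13.2-fold, 9.56-fold and 7.38-fold lower in these parts, and 1206 of 6856 cells lay within 0.25 of a cut on the log2 scale.

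Markers of other cell types moved in both directions beside the Sprr genes. The 8 neutrophil markers summed to 140 CPM in control and 235 CPM in progesterone basal cells and to 27.1 and 58.3 in suprabasal cells, with Trem1 at 0 in the progesterone library. In cluster 6 they summed to 72.0 and 22.3 CPM, with 0 of 8 at 0 in the control and 6 of 8 in the progesterone library (Cxcr2, Retnlg, Hdc, Trem1, Mmp9 and Clec4d). In neutrophil-like cells the same sum was 15684 and 16036 CPM. All 7 fibroblast markers were at 0 in control luminal-like cells and Pdgfra alone in progesterone ones. The basal marker Krt14 stood at 18739 CPM in control and 6475 CPM in progesterone basal cells, so a main keratin was lower as well. Luminal markers went both ways in the suprabasal class. Higher in the progesterone library were Krt18 (134 and 1175 CPM), Muc5b (15.2 and 273), Krt8 (47.0 and 252) and Epcam (320 and 640). Cldn3 (40.6 and 49.9) and Cldn4 (14.0 and 22.9) were higher by less. Krt19 (210 and 121), Krt7 (340 and 299), Cldn7 (334 and 223) and Elf3 (84.0 and 66.6) were lower. The 5 erythrocyte markers summed to 28.9 and 84.1 CPM in basal and 28.1 and 76.2 in suprabasal cells, and the 8 T and NK markers to 26.3 and 5.95 and to 25.9 and 6.76. The part of these differences in the Sprr ratios was not tested.

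In single cells, each thinned to 2000 UMIs, any of the 7 genes was found in 52.2% [48.7 to 55.7] of control and 7.47% of progesterone basal cells. In suprabasal cells the shares were 84.6% and 47.2%, in the cycling cluster 59.2% and 16.9%, in luminal-like cells 77.5% and 45.7%, and in cluster 6 99.2% and 97.3%. Unthinned, the basal shares were 52.4% and 12.6% and the suprabasal ones 90.2% and 62.4%. Thinning left out 400 control and 205 progesterone basal cells and 115 and 38 suprabasal ones. In macrophage-like cells, the background, the shares were 23.7% and 5.0%, or 24.7% and 7.77% unthinned, at median depths of 1472 and 1900 UMIs against 3398 and 4556 in basal cells. The progesterone basal share lay within the macrophage-like interval of 2.42 to 9.00%. Of the suprabasal cells, 56.5% of control but 5.77% of progesterone cells had a Sprr2f UMI, 34.8% and 1.24% a Sprr2d UMI, and 67.9% and 44.9% a Sprr1a UMI.

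Most control cells of cluster 6 and of the suprabasal class as a whole held several members at once, but not most cells of suprabasal clusters 0 and 4. Of control suprabasal cells 60.8% [58.1 to 63.5] had at least 2 of the 7 genes, with a median of 2, and 5.46% [4.12 to 7.08] of progesterone suprabasal cells did, with a median of 0. By cluster the control share was 73.0% in cluster 1, 39.8% in cluster 0 and 25.5% in cluster 4, with medians of 2, 1 and 1. In the progesterone library it was 35.3% in cluster 1 and 3.16% in cluster 0, so the class shares compare different clusters. In cluster 6 the shares were 94.8% and 86.5%, with medians of 3 and 2, and in control basal cells 18.4%. Member UMIs were unevenly spread: they made up a median of 0.362% of a control suprabasal cell's UMIs and 0.0246% of a progesterone one's, and in cluster 6 2.40% and 0.798%, with highest values of 17.1% and 6.04%. The tenth of suprabasal cells with the most held 44.6% of the member UMIs in the control and 64.6% in the progesterone library.

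**Figure D5:**
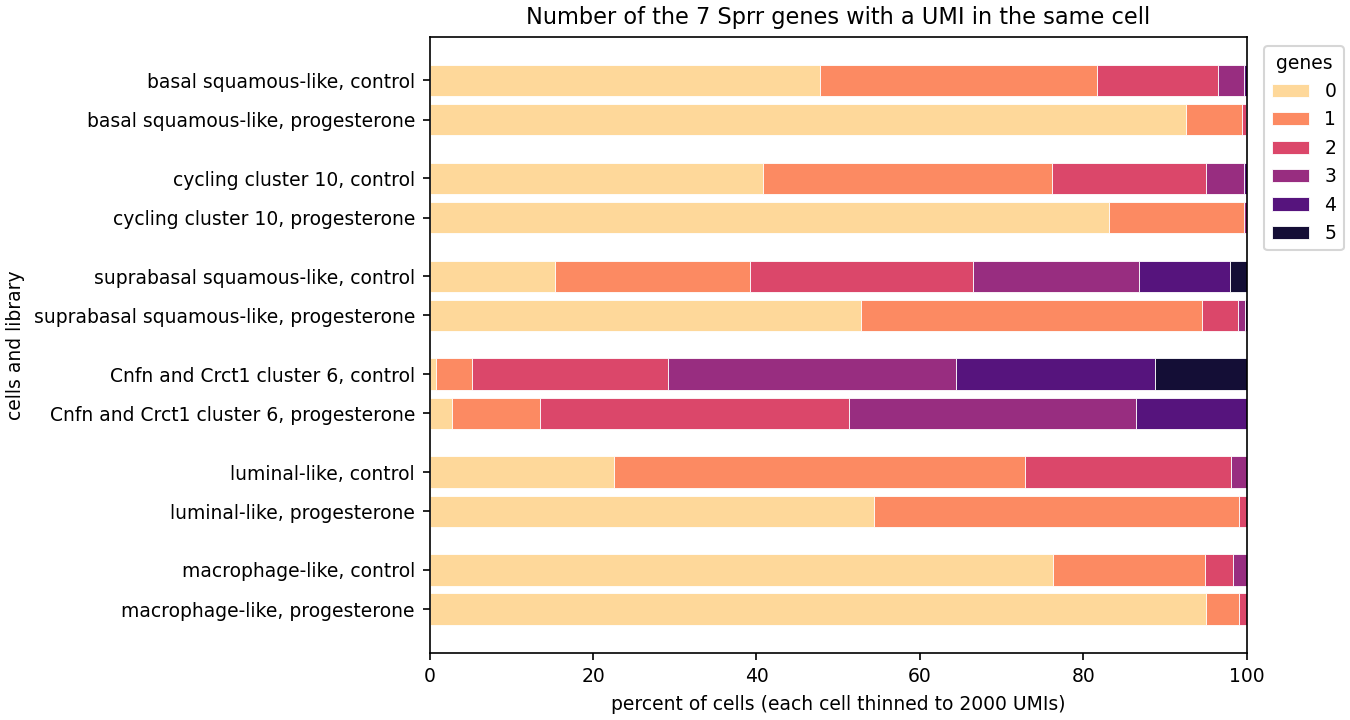
Stacked bars of the percent of cells by the number of the 7 Sprr genes with a UMI (colours, 0 to 5), after thinning each cell to 2000 UMIs, by cell class and library. In control suprabasal cells 2 genes are the most frequent number (27.4% of cells), and in progesterone suprabasal cells 0 genes (52.8%).

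The members were also counted in pairs, against the number of cells with both that the product of their shares gives. This ratio cannot exceed 1 over the larger of the shares, so it is capped lower for pairs with a widespread gene such as Sprr1a, and pairs of unlike abundance are not ranked by it. Over all control squamous-like cells Sprr2d and Sprr2f met in 387 of 2089 cells, where the product of their shares gives 200, a ratio of 1.94. Sprr2b and Sprr2d met 3.18 times as often as that product, on 69 cells, Sprr2b and Sprr2f 2.05 times, and Sprr1a with Sprr2f 1.33, with Sprr2d 1.47 and with Sprr2b 1.53 times. Pooling layers of different level can raise such ratios, so they were repeated within layers. In control suprabasal cells 82.5% of Sprr2d cells also had Sprr2f (367 cells, ratio 1.46), and 90.7% of Sprr2b cells did, whereas 64.2% of Sprr1a cells did (557 cells, ratio 1.14). Within cluster 1 the ratio was 1.22 for Sprr2d with Sprr2f and 1.04 for Sprr1a with Sprr2f. In cluster 6, where nearly every cell had both Sprr2d and Sprr2f (219 of 250), the ratio was 1.023. Among progesterone cells 39 of 971 suprabasal cells had both Sprr1a and Sprr2f, 8.94% of the Sprr1a cells, with a ratio of 1.55, and 11 of 1527 luminal-like cells did, with a ratio of 0.80. Cells of a library are not replicates and share its depth and free RNA, so these ratios are descriptions.

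Over 29 groups of at least 50 cells (clusters in each library), the log levels of Sprr2d and Sprr2f had a Pearson correlation of 0.892, Sprr2b and Sprr2d also 0.892, Sprr2a3 and Sprr2f 0.867, Sprr2b and Sprr2f 0.802, Sprr2a3 and Sprr2d 0.712, Sprr1a and Sprr2f 0.742 and Sprr1a and Sprr2d 0.548. The groups share their libraries, and no p is given. Of 8394 other genes, the one most like the sum of the members was Spink12, a Kazal-type protease inhibitor, at 0.901. It was followed by 1110008P14Rik (0.846), Wnt7b, a secreted Wnt ligand (0.846), Tmprss11d and Tmprss4, membrane serine proteases (0.832 and 0.814), Smap1 (0.801), Gpx2, a glutathione peroxidase (0.790), Engase (0.788), Atg101 (0.774) and Grhpr (0.772). By single members, the most like were Clic3 (0.887), Tmprss4 (0.873) and Grhl1 (0.868) for Sprr1a, Spink12 (0.932), Gpx2 (0.820) and Aqp4 (0.805) for Sprr2f, and Gm15987 (0.858), Spink12 (0.855) and Lcn2 (0.848) for Sprr2d. For Sprr2b they were Il1f6 (0.926), Gm15987 (0.854) and Uox (0.853), and for Sprr2a3 Ndufa4l2 (0.844), Spink12 (0.840) and Higd1a (0.827). Rank (Spearman) correlations were lower for some of these. Il1f6, Gm15987 and Uox stood at 0.497, 0.592 and 0.618 with Sprr2b, and Aqp4 at 0.584 with Sprr2f. Gm15987 and Lcn2 stood at 0.666 and 0.682 with Sprr2d, and all others named at 0.743 or more.

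Other genes of the same programme were counted from 4 fixed lists, again as CPM ratios with no test. Of the cornified envelope and late differentiation list, 21 of 42 genes had at least 20 UMIs in suprabasal cells, and 12 were past 2-fold lower in the progesterone library and 0 higher, with a median log2 ratio of −1.28 beside 0.19 over all genes. Of all genes in these cells 5.43% were past 2-fold lower and 10.5% higher. In basal cells it was 8 lower and 0 higher of 15, with a median of −1.26 beside −0.01, where 6.15% of all genes were lower and 7.29% higher. As for the members, a gene could enter these counts through 1 library alone. Suprabasal Sbsn, a secreted protein of differentiating keratinocytes, stood at 596 and 188 CPM, 3.17-fold lower. Spink5, the inhibitor of the proteases that shed cornified cells, stood at 1808 and 744, 2.43-fold lower, and in basal cells at 592 and 34.4. Krtdap (1075 and 586) and Lypd3 (370 and 196) were 1.84-fold and 1.89-fold lower. These genes were lower by less than Sprr2d, Sprr2b, Sprr2a3 and Sprr2f in the same cells.

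Of the stress keratins and alarm genes all 9 with enough UMIs were past 2-fold lower in suprabasal cells and 8 of 9 in basal cells, with medians of −3.64 and −2.26, against the same shares of all genes. Krt16, a keratin of activated epidermis, stood at 6055 CPM in control and 64.0 CPM in progesterone suprabasal cells, 94.6-fold lower. S100a9, a subunit of calprotectin, stood at 184 and 10.1, Lcn2, an iron-siderophore binding protein, at 1135 and 90.9, and Krt6a, the partner of Krt16, at 4603 and 1619 CPM.

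Most transcription factors named for barrier genes were within 2-fold, as were most genes. In suprabasal cells 2 of 21 were past 2-fold lower, among them Maf, and 2 higher (Grhl2 and Hopx), with a median of 0.09. These shares were near those of all genes (5.43% lower and 10.5% higher). In basal cells 4 of 21 were lower, among them Ovol1, Hopx and Maf, and 0 higher, with a median of −0.05. The share lower there was above that of all genes (6.15% lower and 7.29% higher). Jun, a part of AP-1, stood at 250 and 150 CPM in suprabasal cells, 1.66-fold lower. Klf4 stood at 239 and 342, a ratio of 1.44, and Ehf at 520 and 555 CPM. Of the steroid receptors and estrogen response genes 10 had enough UMIs. In suprabasal cells 4 were past 2-fold higher in the progesterone library, among them Esr1, Pgr and Greb1, and 2 lower (Ltf and Muc1), and in basal cells 3 were lower (Ltf, Muc1 and Padi3) and 0 higher. Of all genes, 10.5% were past 2-fold higher in suprabasal and 6.15% past 2-fold lower in basal cells. Ltf, lactotransferrin, stood at 1510 and 160 CPM in suprabasal cells, 9.44-fold lower. Padi1 (95.1 and 174 CPM) and Wnt4 (183 and 146) were within 2-fold.

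Cluster 6, with the highest Sprr level, also read some late envelope genes far above suprabasal cells in the control library. Cnfn stood at 2173 CPM there and at 35.1 in suprabasal cells, Crct1 at 1469 and 2.99, and Lce3a, a late cornified envelope gene, at 928 and 0.23. Other genes of the same list were lower there, among them Krtdap (39.8 and 1075 CPM), Spink5 (408 and 1808) and Sbsn (396 and 596). Loricrin, Lor (1.64 and 2.07), and involucrin, Ivl (4.91 and 10.8), were hardly read in either. The stress and alarm list also went both ways. Lcn2 (14150 and 1135 CPM) and S100a9 (6856 and 184) were higher in cluster 6, and Krt16 (307 and 6055) and Krt6a (820 and 4603) lower. The clusters were built without these genes and the Sprr genes, yet Crct1, Cnfn and Lce3a are among the top genes that describe cluster 6, so their level there is a description.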

How the data were processed

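Cervix cells of 9 pooled mice per group were profiled with the 10x Genomics 3′ kit and a 90-base read, per the labels' protocols. The deposited values are unnormalised UMI counts for each gene in each cell, made with Cell Ranger 3.0.2 and build mm10, per the submitters' processing notes. The aligner settings, the annotation and the filter behind the deposited barcodes are not given in the sources used here. Every deposited barcode had at least 500 UMIs.

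Barcodes were left out if they had under 200 genes or over 20% of their UMIs in mitochondrial genes. Scrublet gave doublet scores in scanpy 1.11.5 (Python 3.11.15), and the top-scoring 0.8% for every 1000 barcodes were dropped, which took away 181 control and 680 progesterone barcodes. Both libraries were clustered together by the Leiden method at resolution 1, from 15 neighbours over 30 principal components of the 2000 most variable genes. Mitochondrial genes, all Sprr genes and the 4 gene lists, 118 genes in all, took no part in clustering. A cluster took the name of 1 of 16 classes if the mean log2 score of that class's markers reached 0.75, led the next by 0.5 and rested on 3 or more detected markers. It stayed unnamed if its top 10 genes by fold held more markers of another class, if a class outside the epithelium had Krt5 at 2000 CPM or more, or if a luminal score came with 2 or more cornified genes among the top 10, which kept cluster 6 out of the luminal class, and also if it was shallow with none of its own markers on top. These thresholds were set after clusters had been seen, so names are X-like and other names could move values. The members and lists were chosen with earlier results of these data known.

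CPM were taken from the summed UMIs of a class in a library. Intervals are exact Poisson (levels), conditional binomial (ratios) and Clopper-Pearson (shares) at 95%, for counting error only. Against 0 counts, a fold is a lower bound that puts 3 counts in place of the 0. Log2 ratios had 0.5 added to each count, and a gene needed 20 UMIs over both sums to enter a count past 2-fold. The 4 genes of each list with the most UMIs were named, except for some that are not reported here, and for likeness the 10 highest Pearson correlations of log2(CPM + 10) with the sum and the 3 highest with each member, over genes with at least 500 UMIs. Cells were thinned to 2000 UMIs for shares. Other features were chosen after their values were seen. The calculations were tested on simulated data. Positions came from GENCODE (GRCm38), which held 30934 of the 31053 gene identifiers, and promoters from RefSeq (GRCm38.p6).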

Additional observations from a re-analysis of the deposited data

How the results depend on the processing

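None of the settings tried turned the direction of a summed Sprr ratio or of a member's ratio over squamous-like cells, but many moved sizes beyond counting error; except for settings that change which cells or genes are summed, the cause was not tested. All values here are log2 ratios. Of the summed progesterone over control ratios, the basal one was −3.31, the suprabasal one −2.73, that of all squamous-like cells −3.71 and that of all analysed cells −3.72. The step from basal to suprabasal cells was 3.0 in the control and 3.57 in the progesterone library. With Leiden resolution 0.5 the suprabasal ratio was −0.482 and the squamous one −2.65, and the steps 1.43 and 4.3. With resolution 2 the basal, suprabasal and squamous ratios were −3.11, −1.98 and −3.57 and the steps 2.63 and 3.76. With the libraries clustered apart they were −4.15, −1.63 and −2.64, and the steps 1.77 and 4.28. A stricter cell filter (at most 10% mitochondrial UMIs, at least 500 genes) gave −4.07, −2.97 and −3.21, and steps of 2.59 and 3.69. No doublet removal gave −2.54 for suprabasal and −3.76 for all cells, and steps of 2.78 and 3.48. Leaving the most abundant genes out of the denominator, which raised every ratio by 0.19 in basal, 0.11 in suprabasal, 0.17 in squamous-like and 0.10 in all cells, gave −3.11, −2.62, −3.54 and −3.62, and a progesterone step of 3.47. Means of per-cell CPM gave −2.88 for suprabasal, −3.84 for squamous and −3.64 for all cells, and a control step of 3.26. Layers by marker ratio gave −3.72 for basal and −2.88 for suprabasal cells, and steps of 3.07 and 3.9.

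The next alternatives were chosen after seeing the data. Cluster 10 counted as basal gave −3.13 for basal and −3.6 for squamous cells, with steps of 2.94 and 3.34. Cluster 6 counted as suprabasal gave −3.84 for squamous cells and steps of 3.88 and 4.42. Cluster 0 alone gave −2.43 and steps of 2.18 and 3.06, and cluster 1 alone −0.773 and steps of 3.44 and 5.97. Leaving out barcodes found in both libraries left the 6 summed values within 0.01. In cluster 6 the Sprr1a ratio was −2.83, or −2.28 without the 1 control cell richest in it.

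By member over squamous-like cells, the alternatives ranged from −2.7 to −2.02 for Sprr1a, −5.28 to −4.53 for Sprr2a3, −8.73 to −4.76 for Sprr2b, −7.36 to −4.54 for Sprr2d and −4.83 to −3.43 for Sprr2f. The share of squamous-like cells with at least 2 members was 43.8% in the control and 1.72% in the progesterone library. It was 30.7% and 1.1% when cells were thinned to 1000 UMIs, 59.1% and 3.43% at 4000, 50.1% and 3.5% without thinning, and 40.7% for control cells without doublet removal. Asking for 100 UMIs per gene put 4.15% of genes past 2-fold lower in basal and 3.82% in suprabasal cells. The depth of 449284 UMIs in progesterone cluster 6 limits Sprr1b and Sprr3 there. No paired analysis was possible because each group is 1 library.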

Other observations

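A single control cell of cluster 6, singled out after its values were seen, held an Sprr profile unlike that of its neighbours. Of its 16444 UMIs, 1670 were Sprr1a, 32 were Sprr1b, 20 were Sprr3 and 67 were Sprr2i, whereas Sprr2a3, Sprr2b, Sprr2d and Sprr2f were each at 0. The 7 genes took 10.5% of its UMIs. It also held 619 UMIs of Cnfn and 687 of Crct1, which are among the 10 top genes of cluster 6, beside 23 of Krt14, 42 of Krt16 and 0 of Krt1 and Krt8. All Sprr1b UMIs of control cluster 6 and 20 of its 31 Sprr3 UMIs came from this cell.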
